A study of Mus musculus with 10 samples.

Results

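The signaling lymphocyte activation molecule (SLAM) receptors of mouse chromosome 1 were described here by their RNA in microglia, the resident macrophages of the brain. The 8 genes chosen were Slamf1, Slamf6, Slamf7, Slamf8, Slamf9, Ly9, Cd48 and Cd84, taken by symbol from the 53697 genes of the deposited files, and all 8 had enough counts to be tested. They were selected on their counts in the same contrast of genotypes that is described below, so their own levels and fold changes are a description and carry no test. The series holds 10 RNA-seq libraries, of which 5 came from wild-type (WT) mice, that is C57BL/6J or Rosa26Stop-YFP animals, and 5 from Bhlhe40/41 double knockout (DKO) mice, Bhlhe40-/-Bhlhe41-/-, which lack the paired basic helix-loop-helix repressors. All mice were female, untreated and kept on the C57BL/6 background, at ages given as 2 and 6 months as lower limits without a link to libraries. Microglia were sorted by flow cytometry as viable cells with CD45.2 and CD11b and without Ly6C, Ly6G, MHCII or CD38 on the surface. Libraries are named by genotype and label number, WT 1 to WT 5 and DKO 1 to DKO 5, and since the labels do not tie a library to 1 animal, p-values measure the spread between libraries.

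SLAM receptors are cell surface proteins of the immunoglobulin superfamily that cells of the immune system use to sense each other. Most of them bind a copy of themselves on the neighbouring cell and carry tyrosine switch motifs in their tails. These motifs recruit the small SAP adaptors and, through SAP itself, Src family kinases such as FYN, or phosphatases when the adaptors are missing. CD48 has no tail of its own, is held in the membrane by a lipid anchor and serves as the ligand of CD244 and CD2, while SLAMF8 and SLAMF9 have short tails without the switch motif. In macrophages, members of the family have been tied to the uptake of bacteria and of tumor cells and to the control of the phagosomal NADPH oxidase.

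Of the 8 genes, Ly9, Slamf9, Slamf6 and Cd48 were higher in DKO microglia, Slamf1 and Cd84 were lower by their means, and Slamf7 and Slamf8 differed little against their spread. Ly9 moved most, at 4.39-fold, and Slamf9 followed at 2.01-fold. Past the threshold used for all genes (edgeR, adjusted p under 0.05) stood 4 of the 8, all higher, where 6.19% of the 13916 tested genes were called, 4.34% as higher and 1.85% as lower. In counts scaled to library size with TMM factors (CPM), every DKO library lay above every WT library for the same 4 genes, while of all tested genes 7.62% showed no overlap, 4.33% with DKO and 3.29% with WT libraries above. Scaled to library size alone, only Slamf9 and Ly9 stood apart upward, Slamf6 and Cd48 overlapped, and Cd84 lay lower in every DKO library, where 8.62% of tested genes showed no overlap, 3.27% with DKO and 5.35% with WT libraries above. Nothing is read from these shares, as the choice of genes used this contrast. The median log2 fold change of the 8 genes was 0.49, against -0.0095 over all tested genes.

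**Figure D1:**
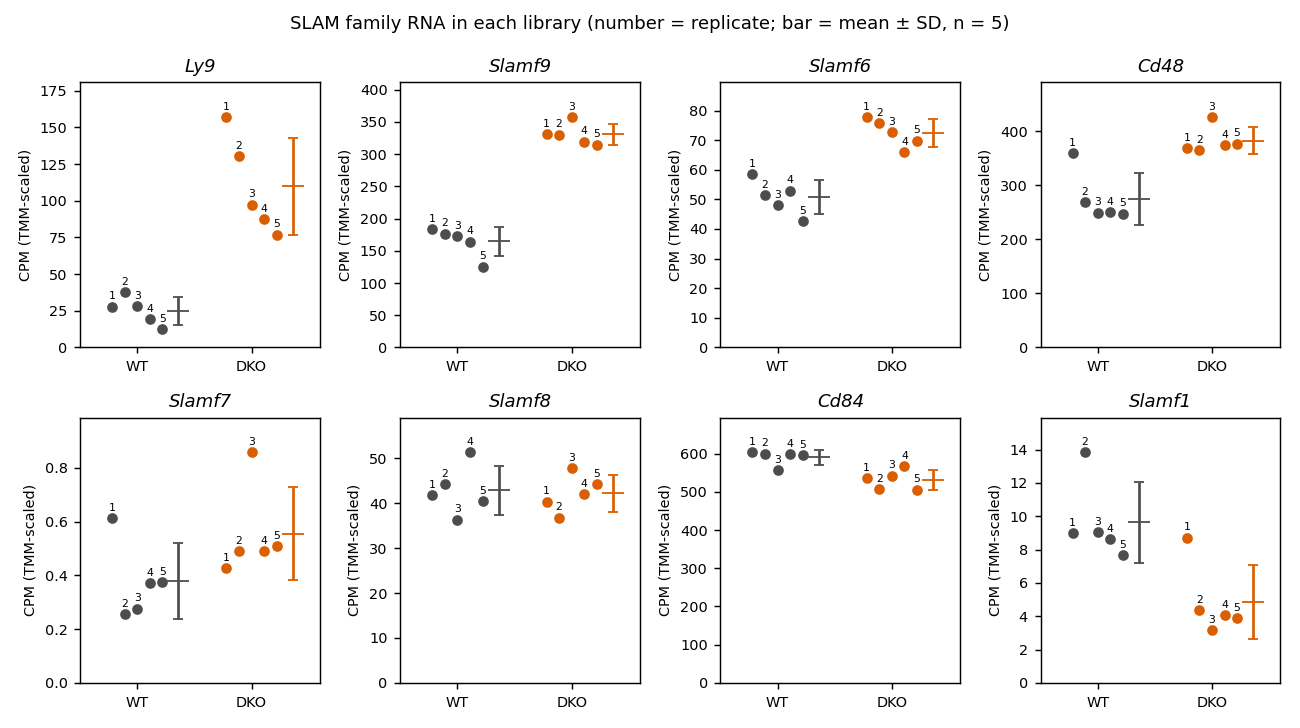
CPM of each SLAM gene in each library (linear axis from 0), with points numbered by library and the bar giving the mean and SD of 5 libraries. In Ly9, Slamf9, Slamf6 and Cd48 every DKO point lies above every WT point, for Slamf6 and Cd48 not so when library size alone sets the scale, and in the lower row the genotypes overlap.

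The libraries held 22483284 to 26109349 estimated counts, with similar totals in both genotypes. On the first principal component, which held 46.2% of the variance, WT 1 (-72.5) and WT 5 (-79.1) lay farthest from the DKO libraries (22.1 to 56.2) and WT 3 (13.7) lay nearest to them. Mitochondrial RNA took 1.75% of counts in WT 1, 1.54% in WT 5 and 1.58% in DKO 3, and 0.986% to 1.16% elsewhere. Bhlhe40 had means of 0.601 ± 0.385 (WT) and 0.177 ± 0.136 CPM (DKO; SD, n = 5 each), too few counts for a test. Bhlhe41 had 35.9 ± 6.67 and 50.9 ± 8.46 CPM (adjusted p = 0.0707, edgeR) and was called as higher by DESeq2 but not by limma voom, and the sources used here do not name the exons that the alleles lack, so RNA of a kept part cannot be told from the whole. All 12 microglia markers were tested, with a summed level of 89407 to 100391 (WT) and 82302 to 100696 CPM (DKO), and 1 of them, P2ry12, fell (log2 fold change -0.50, adjusted p = 0.0301, edgeR).

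The genes lie in 1001945 bases of chromosome 1 (GRCm38, GENCODE M21). Ly9 (171588624 to 171607410, minus strand), Slamf7 (171632403 to 171653035, minus strand), Cd48 (171682009 to 171705258, plus strand), Slamf1 (171767127 to 171801184, plus strand), Cd84 (171839697 to 171890718, plus strand) and Slamf6 (171917515 to 171953170, plus strand) follow each other closely. After a gap of 522187 bases come Slamf9 (172475358 to 172478575, plus strand) and Slamf8 (172581758 to 172590568, minus strand). BHLHE40 and BHLHE41 bind E-boxes, with CACGTG as the best known form, and PU.1, the leading factor of macrophage enhancers, binds sites with the core GAGGAAGT, so the start regions of the genes were searched for both. RefSeq (GRCm38.p6) gave a region from 250 bases before to 50 bases after the start for 7 of the 8 genes, all but Ly9. CACGTG, which reads the same on both strands, stood in the regions of Slamf9 and Slamf8 and in 7.15% of all 32851 such regions. GAGGAAGT on either strand stood in the region of Slamf9 and in 3.2% of all regions, and in Slamf9 the motifs did not overlap.

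The regions of both genes with an E-box are printed here, together with that of Cd48, which has neither motif, with both motifs in capitals and the start site 250 bases after the first letter. That of Slamf9 is chr1:172475110-172475409 on the plus strand, that of Slamf8 chr1:172590519-172590818 on the minus strand, and that of Cd48 chr1:171681742-171682041 on the plus strand. In Slamf9 the E-box begins 204 bases and the PU.1 core 8 bases before the start, and in Slamf8 the E-box begins 157 bases before it.
Slamf9: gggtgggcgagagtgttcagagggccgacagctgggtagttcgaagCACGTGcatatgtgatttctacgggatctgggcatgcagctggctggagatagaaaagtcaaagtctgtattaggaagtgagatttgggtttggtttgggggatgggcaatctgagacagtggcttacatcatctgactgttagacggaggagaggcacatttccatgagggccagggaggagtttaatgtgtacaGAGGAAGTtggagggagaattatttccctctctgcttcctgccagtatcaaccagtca
Slamf8: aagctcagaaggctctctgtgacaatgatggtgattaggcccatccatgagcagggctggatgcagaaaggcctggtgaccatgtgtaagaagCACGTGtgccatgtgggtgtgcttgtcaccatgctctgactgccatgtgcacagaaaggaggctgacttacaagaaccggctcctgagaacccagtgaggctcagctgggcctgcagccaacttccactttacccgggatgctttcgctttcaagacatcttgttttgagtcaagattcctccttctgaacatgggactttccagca
Cd48: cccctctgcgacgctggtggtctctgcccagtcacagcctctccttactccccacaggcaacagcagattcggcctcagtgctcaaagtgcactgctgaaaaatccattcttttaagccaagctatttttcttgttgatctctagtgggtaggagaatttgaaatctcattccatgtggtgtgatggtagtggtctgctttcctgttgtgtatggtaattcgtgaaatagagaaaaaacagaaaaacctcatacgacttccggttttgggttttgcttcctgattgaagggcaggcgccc

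Slamf9, with its E-box, was higher in DKO microglia, Slamf8, with its E-box, was not, and Cd48, Slamf6, Slamf1, Cd84 and Slamf7 had neither motif in these windows. The letters describe the windows, and no binding was measured here.

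Among the receptors that bind themselves and carry switch motifs, Ly9, known as SLAMF3 or CD229, had the largest fold. Its RNA stood at 27.8, 37.5, 28.3, 19.2 and 12.3 CPM in WT 1 to WT 5 and at 157, 130.3, 97.3, 87.6 and 76.9 CPM in DKO 1 to DKO 5. The lowest DKO library was above the highest WT library, and in both genotypes the libraries numbered 4 and 5 were below those numbered 1 to 3. The WT mean was 25.0 ± 9.61 and the DKO mean 109.8 ± 33.2 CPM (SD, n = 5 each), a log2 fold change of 2.13 with a standard error of 0.29. Within libraries 1 to 3 the log2 fold change was 2.03 and within libraries 4 and 5 it was 2.39, and it was 1.95 without WT 1 and WT 5. Ly9 lies inside Cd244a on the opposite strand, and the kit does not mark strand, so reads of shared bases cannot be told apart. Cd244a was read at no more than 3.03 CPM in any library, a value that itself depends on how such reads were assigned.

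Slamf6, which in lymphocytes works through SAP and is the receptor Ly108, was moderately higher. It stood at 58.5, 51.4, 48.2, 52.9 and 42.7 CPM in WT 1 to WT 5 and at 77.8, 75.6, 72.6, 65.9 and 69.9 CPM in DKO 1 to DKO 5. WT 1 was the highest WT library and DKO 4 the lowest DKO library, and with TMM factors these did not meet, while scaled to library size alone they crossed, at 62.9 for WT 1 and 62.0 for DKO 4. The means were 50.7 ± 5.85 and 72.4 ± 4.72 CPM (SD, n = 5 each), a log2 fold change of 0.51 with a standard error of 0.10, and the value was 0.51 in libraries 1 to 3, in libraries 4 and 5 and without WT 1 and WT 5 alike. An antisense gene that overlaps its 5′ end, Gm37065, had means of 10.6 (WT) and 9.89 CPM (DKO), and reads of the pair cannot be told apart.

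Slamf1, the founding member, CD150, and a sensor of bacteria in phagocytes, was the member with the lowest mean in DKO relative to WT microglia. It stood at 8.97, 13.8, 9.05, 8.64 and 7.67 CPM in WT 1 to WT 5 and at 8.71, 4.37, 3.17, 4.08 and 3.87 CPM in DKO 1 to DKO 5. DKO 1 lay within the WT range and the other 4 DKO libraries lay below it, while WT 2 was above all others. The means were 9.63 ± 2.41 and 4.84 ± 2.21 CPM (SD, n = 5 each), a log2 fold change of -0.99 with a standard error of 0.27, which was not past the threshold, and 74.0 to 326 counts stood behind each value. The log2 fold change was -0.98 in libraries 1 to 3, -1.03 in libraries 4 and 5 and -1.31 without DKO 1, where the gene passed the threshold. It also passed with RLE, upper-quartile or no scaling factors, with DESeq2, with limma voom and with a term for libraries 4 and 5.

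Cd84, the most abundant member in WT microglia and found on many myeloid cells and on platelets, was at 603, 600.0, 556, 598 and 595 CPM in WT 1 to WT 5. In DKO 1 to DKO 5 it was at 536, 507, 543, 567 and 506 CPM. The genotypes overlapped by 1 library each, WT 3 and DKO 4, and did not overlap when scaled to library size alone (566 to 648 in WT and 473 to 563 in DKO). The log2 fold change was -0.15 with a standard error of 0.07, not past the threshold, on 11359 to 16745 counts per library. The transcript length behind the counts, weighted by isoform abundance, was 2172 to 2302 bases in WT and 2150 to 2204 bases in DKO microglia and overlapped. Slamf7, the receptor CRACC, which engages other SLAMF7 molecules and takes part in phagocytosis with the integrin Mac-1, was close to absent, at 0.378 ± 0.142 and 0.555 ± 0.172 CPM (SD, n = 5 each). Only 6 to 20.3 counts stood behind its values, and a log2 fold change of 0.54 with a standard error of 0.32 is what this depth gives.

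Cd48, the lipid-anchored ligand, was higher in DKO microglia by a smaller fold. It was at 359, 268, 249, 251 and 247 CPM in WT 1 to WT 5 and at 369, 365, 426, 374 and 377 CPM in DKO 1 to DKO 5. WT 1 lay apart from the other 4 WT libraries and just below the DKO libraries, and DKO 3 lay above the other DKO libraries. Scaled to library size alone, WT 1 stood at 386, above all DKO libraries but DKO 3 (352 to 365 in the other 4). The means were 275 ± 47.8 and 382 ± 25.0 CPM (SD, n = 5 each), a log2 fold change of 0.48 with a standard error of 0.11. Without WT 1 and WT 5 it was 0.58, in libraries 1 to 3 it was 0.40 and in libraries 4 and 5 it was 0.59. WT 1 and DKO 3 are among the 3 libraries richer in mitochondrial RNA, whose part in the level of Cd48 was not tested.

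Of the pair with short tails, Slamf9, which is found on myeloid and dendritic cells, was higher and Slamf8, which restrains the oxidase of phagocytes, was not. Slamf9 was at 184, 177, 173, 164 and 126 CPM in WT 1 to WT 5 and at 332, 330.5, 358, 319 and 315 CPM in DKO 1 to DKO 5. The DKO libraries lay close together and far above the WT libraries, of which WT 5 was lowest. The means were 165 ± 22.9 and 331 ± 16.7 CPM (SD, n = 5 each), a log2 fold change of 1.01 with a standard error of 0.10, on 3339 to 8340 counts per library. The log2 fold change was 0.93 in libraries 1 to 3, 1.13 in libraries 4 and 5 and 0.95 without WT 1 and WT 5. Its annotation has a single transcript, so its length was 1313 bases in every library. Slamf8 ranged from 36.4 to 51.4 CPM among WT and from 36.8 to 47.8 CPM among DKO libraries, with means of 42.9 ± 5.55 and 42.3 ± 4.13 CPM (SD, n = 5 each). Its log2 fold change was -0.02 with a standard error of 0.11, and the WT range took in the whole DKO range.

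**Figure D2:**
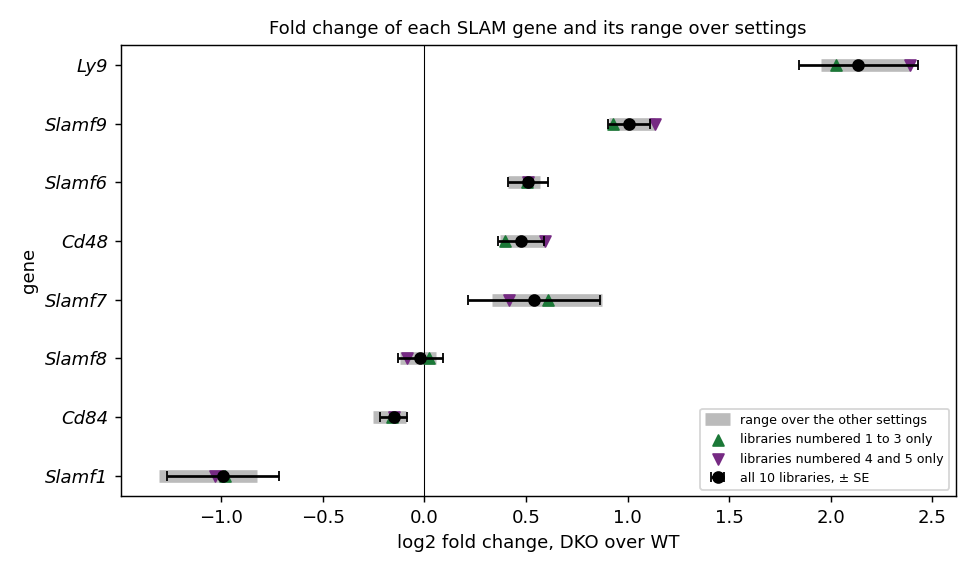
Log2 fold change, DKO over WT, of each SLAM gene (black points with standard errors), with the range over the other settings in grey and the values in libraries 1 to 3 and 4 and 5 as triangles. Ly9 runs from 1.95 to 2.39, Slamf9 from 0.91 to 1.13 and Slamf1 from -1.31 to -0.83, and Slamf8 (-0.12 to 0.06) lies on both sides of 0.

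The plot of fold changes over settings covers 23 alternatives to the test, and since the genes were selected on this contrast it describes the range of each value only. Cd48 no longer stood among the genes past the threshold when any single library other than WT 1, WT 3 or DKO 4 was left out, and its log2 fold change ran from 0.37 to 0.59 among the settings. It was also lost with upper-quartile factors, library size only, the replicate block and either set of libraries alone. Cd48 was thus past the threshold in 11 of 23 settings.

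To compare the genes with each other, CPM were divided by the effective length in kilobases, since long transcripts give more reads. In WT microglia 3 genes made up most of the family, Cd84 at 234 ± 13.8, Cd48 at 213 ± 38.2 and Slamf9 at 159 ± 22.6 CPM per kilobase (SD, n = 5 each). Cd84 was above Cd48 in 4 of 5 libraries, with overlapping ranges, and Cd48 was above Slamf9 in all 5 with none. Next came Slamf6 at 37.6 ± 3.95, Slamf8 at 30.9 ± 4.01, Ly9 at 10.6 ± 3.90, Slamf1 at 3.26 ± 0.785 and Slamf7 at 0.208 ± 0.192 CPM per kilobase (SD, n = 5 each). Of these only the ranges of Slamf6 and Slamf8 met, with Slamf6 above in each library.

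In DKO microglia the order was different, with Slamf9 first at 315 ± 18.2, Cd48 at 291 ± 21.2 and Cd84 at 216 ± 12.2 CPM per kilobase (SD, n = 5 each). Slamf9 was above Cd48 in all 5 libraries although the ranges overlapped, and Cd48 was above Cd84 with no overlap. Slamf6 stood at 51.7 ± 4.07, Ly9 at 46.7 ± 14.2 and Slamf8 at 30.2 ± 3.10 CPM per kilobase (SD, n = 5 each). Neighbours among these 3 overlapped, with Slamf6 above Ly9 in 3 of 5 libraries and Ly9 above Slamf8 in all 5. Slamf1 at 1.61 ± 0.753 and Slamf7 at 0.292 ± 0.113 CPM per kilobase (SD, n = 5 each) were again last.

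**Figure D3:**
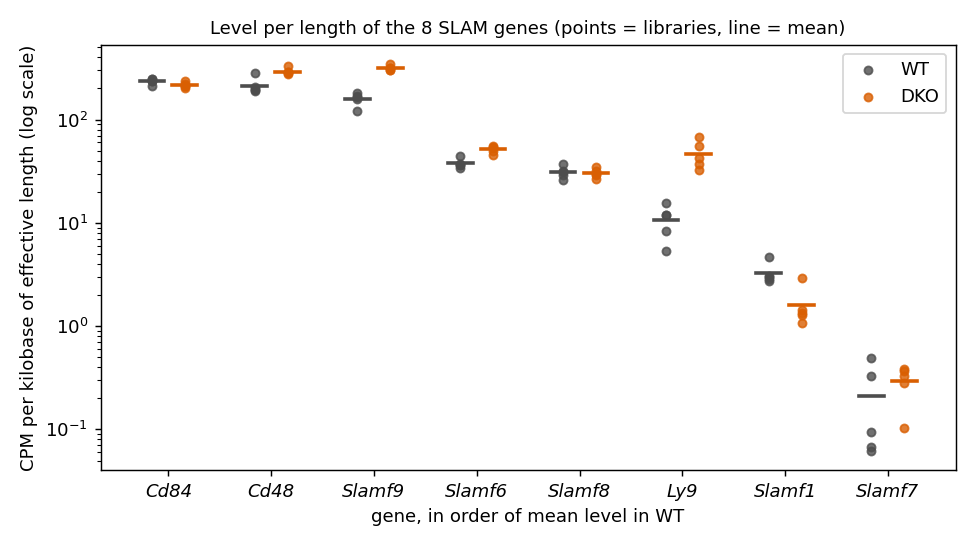
CPM per kilobase of effective length (log axis) of the 8 genes in each library, WT in grey and DKO in orange, with lines for means, in the order of the WT means. The 3 leading genes stand at 121 or above in each library, and Ly9 moves from the level below Slamf8 in WT to the level of Slamf6 in DKO microglia.

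Summed over the family, the level was 689 ± 59.8 CPM per kilobase in WT (638 to 785) and 953 ± 45.6 in DKO microglia (910.2 to 1027; SD, n = 5 each), and the genotypes did not overlap in this unit. The sum was not taken in the deposited TPM, which are scaled to a common total per library. In TPM the genotypes overlapped for Cd48 (200 to 356 in WT, 243 to 333 in DKO) and Slamf6 (38.3 to 56.3 and 39.2 to 55.4). Slamf9 (141 to 229 and 253 to 350) and Ly9 (6.23 to 19.3 and 27.6 to 65.2) did not overlap in TPM. The share of Cd84 in this sum was 34.2% ± 3.36 in WT and 22.7% ± 1.40 in DKO microglia, and that of Slamf9 was 23.0% ± 2.45 and 33.0% ± 0.641 (SD, n = 5 each). Cd48 kept nearly the same share, 30.8% and 30.5%, as did Slamf6, 5.46% and 5.43%, while the share of Ly9 was 1.53% and 4.90%. Ranked by level per length among the 13916 tested genes, Slamf9 was number 710 in WT and 349 in DKO microglia, and Ly9 was number 5489 and 2234. Cd84 was number 482 and 534, and Slamf7 number 13116 and 12703.

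Members also varied between libraries of 1 genotype, the spread that enters the standard errors of the contrast. Taken as deviations from the genotype mean of log2 CPM over all 10 libraries, Slamf6 and Slamf9 went together with a Pearson r of 0.77, Slamf9 and Ly9 with 0.76, Slamf1 and Ly9 with 0.72 and Slamf6 and Ly9 with 0.68. Slamf7 and Cd48, both of which were highest in WT 1 and DKO 3, went together with 0.79, and Slamf1 and Slamf7 went opposite ways with -0.58, which was the lowest of the 28 pairs. These values are descriptive, over 10 libraries made with 1 sort gate and 1 kit. Every member but Slamf8 and Cd84 had lower means in libraries 4 and 5 than in libraries 1 to 3 in both genotypes, Slamf7 on few counts. For Slamf9 the means were 145 and 178 CPM in WT and 317 and 340 CPM in DKO microglia. The part of this difference between sets in the correlations was not tested.

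The other receptors of CD48 and the SAP adaptors were scarce. Of the partners of CD48, Cd2 had 0 counts in every library and Cd244a, the receptor 2B4 of natural killer and myeloid cells, had means of 1.79 ± 0.629 (WT) and 1.92 ± 0.990 CPM (DKO; SD, n = 5 each), a log2 fold change of 0.10 ± 0.38 (SE) with an adjusted p of 0.902 by edgeR. Of the 3 SAP family adaptors, which bind the switch motifs, Sh2d1b2 had too few counts. Sh2d1a, or SAP itself, stood at 1.65 ± 0.504 and 0.981 ± 0.368 CPM (SD, n = 5 each), a log2 fold change of -0.76 ± 0.34 (SE) with an adjusted p of 0.211 by edgeR. Sh2d1b1, or EAT-2, stood at 1.97 ± 0.693 and 1.13 ± 0.555 CPM (SD, n = 5 each), a log2 fold change of -0.79 ± 0.41 (SE) with an adjusted p of 0.270. edgeR, DESeq2 and limma voom called 0 genes of both lists, and 1 adaptor gene, Sh2d1a, had an unadjusted p under 0.05 with edgeR. The share of all tested genes at an unadjusted p under 0.05 is not given here. Nothing is therefore read from such counts in this or the later lists.

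Of 19 kinases, phosphatases and effectors that act after SLAM receptors or their adaptors, 2 rose and 1 fell, or 10.5% called as higher against 4.34% of all tested genes. At an unadjusted p under 0.05 stood 5, a count given without the share over all tested genes. Fgr, a Src family kinase of myeloid cells, rose, with 8.79 ± 2.40 CPM in WT and 17.0 ± 1.47 in DKO (SD, n = 5 each), a log2 fold change of 0.95 ± 0.18 (SE) with an adjusted p of 0.0127 by edgeR. Dok2, a docking protein that dampens kinase signals, rose, with 0.558 ± 0.354 CPM in WT and 1.95 ± 0.378 in DKO (SD, n = 5 each), a log2 fold change of 1.79 ± 0.41 (SE) with an adjusted p of 0.0273. Src, the kinase that names the family, fell, with 5.37 ± 1.24 CPM in WT and 2.70 ± 0.389 in DKO (SD, n = 5 each), a log2 fold change of -0.99 ± 0.20 (SE) with an adjusted p of 0.0140. Fgr was past the threshold in 21, Src in 20 and Dok2 in 13 of 23 settings, and Dok2 was lost when any single library other than WT 3, WT 5 or DKO 3 was left out. Over all settings the adjusted p of Dok2 reached 0.326.

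The partners of SLAMF7 in phagocytosis were far more abundant than Slamf7. Of 6 tested, Itgb2, the beta chain of Mac-1, rose, with 826 ± 108 CPM in WT and 1174 ± 87.1 in DKO (SD, n = 5 each), a log2 fold change of 0.51 ± 0.10 (SE) with an adjusted p of 0.0151 by edgeR. None of the 6 fell in this fit, or 16.7% called as higher against 4.34% of all tested genes, and with library size only 1 was called higher and 1 lower. Without WT 1 and WT 5 its adjusted p was 0.0566. Of 10 genes of the phagosomal lipid kinase complex, to which SLAMF1 binds through Beclin 1, and of the NADPH oxidase, Cybb rose and none fell, or 10% called as higher against 4.34% of all tested genes. Cybb, the catalytic subunit of the oxidase, had means of 1.82 ± 0.966 (WT) and 7.30 ± 3.28 CPM (DKO; SD, n = 5 each), a log2 fold change of 2.00 ± 0.43 (SE) with an adjusted p of 0.0211, and it was lost without WT 2, WT 4, DKO 1 or DKO 2. At an unadjusted p under 0.05 stood 3 of the SLAMF7 partners and 4 genes of the phagosome and oxidase list, among them Ncf4 (adjusted p = 0.0635), which DESeq2 called as higher, and Uvrag (log2 fold change 1.67, adjusted p = 0.0663), which DESeq2 and limma voom called as higher. Both counts again stand without the share over all tested genes.

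**Figure D4:**
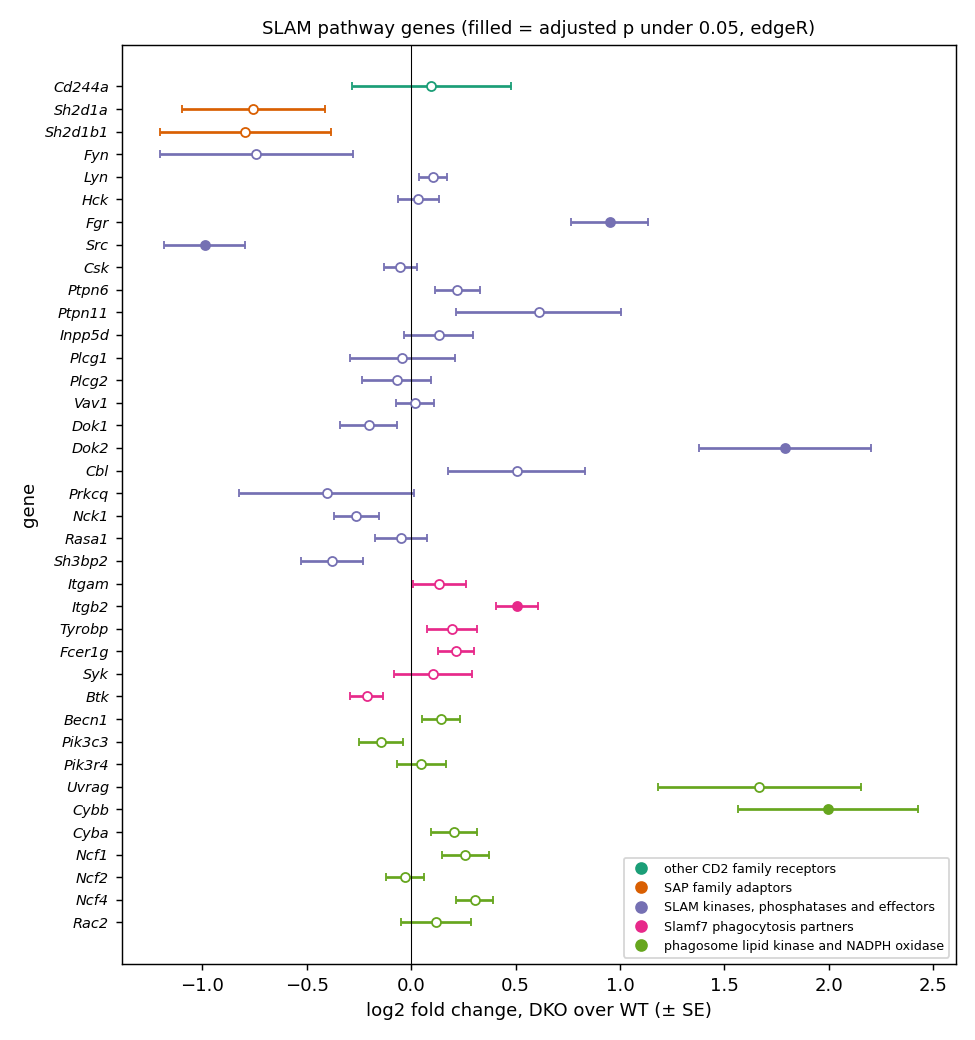
Log2 fold change, DKO over WT, with standard errors of the tested genes of 5 pathway lists, coloured by list, where filled points are past an adjusted p of 0.05. Filled are Fgr (0.95), Dok2 (1.79), Itgb2 (0.51) and Cybb (2.00) to the right of 0 and Src (-0.99) to the left.

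Around the SLAM genes, from 500 kb before the first to 500 kb after the last, the annotation places 89 other genes in the files, of which 44 were tested. Of these 3 rose and 0 fell with edgeR, or 6.82% against 6.19% of all tested genes. At an unadjusted p under 0.05 stood 16, and as the share over all tested genes is not given, nothing is read from this count. Some neighbours were called lower in other settings, with 6 higher and 2 lower by DESeq2, 4 and 1 by limma voom, 4 and 3 with the term for libraries 4 and 5 and 3 and 2 with upper-quartile factors. These settings also called more of all 13916 tested genes than the main fit (862). The counts were 1629 with DESeq2, 1158 with limma voom, 1431 with the term and 1026 with upper-quartile factors. For each of the 3 genes called by edgeR, Slamf9 was the nearest of the SLAM genes, and nothing is read from this. Tagln2, a small actin-binding protein, lies 21.5 kb from Slamf9 and rose, with 37.7 ± 7.74 CPM in WT and 87.3 ± 6.93 in DKO (SD, n = 5 each), a log2 fold change of 1.21 ± 0.14 (SE) with an adjusted p of 0.000454 by edgeR. Kcnj10, a potassium channel best known from astrocytes, lies 101 kb away and rose, with 1.34 ± 0.494 CPM in WT and 14.1 ± 8.34 in DKO (SD, n = 5 each), a log2 fold change of 3.39 ± 0.46 (SE) with an adjusted p of 0.00148. Igsf8, an immunoglobulin superfamily partner of tetraspanins, lies 156 kb away and rose, with 86.3 ± 6.91 CPM in WT and 190.1 ± 29.1 in DKO (SD, n = 5 each), a log2 fold change of 1.14 ± 0.12 (SE) with an adjusted p of 0.000180. Of the 7 tested genes within 100 kb of Slamf9, edgeR called Tagln2 alone, and DESeq2 also called Igsf9, the nearest tested gene to Slamf9 at 3.21 kb (0.623 CPM in WT and 1.64 in DKO, log2 fold change 1.39, adjusted p = 0.0583 by edgeR). Of all 44, 15 had a log2 fold change above 0 and 29 below 0, and Dusp23, the nearest tested gene after Slamf8 at 40.2 kb, had 0.42 (adjusted p = 0.194).

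**Figure D5:**
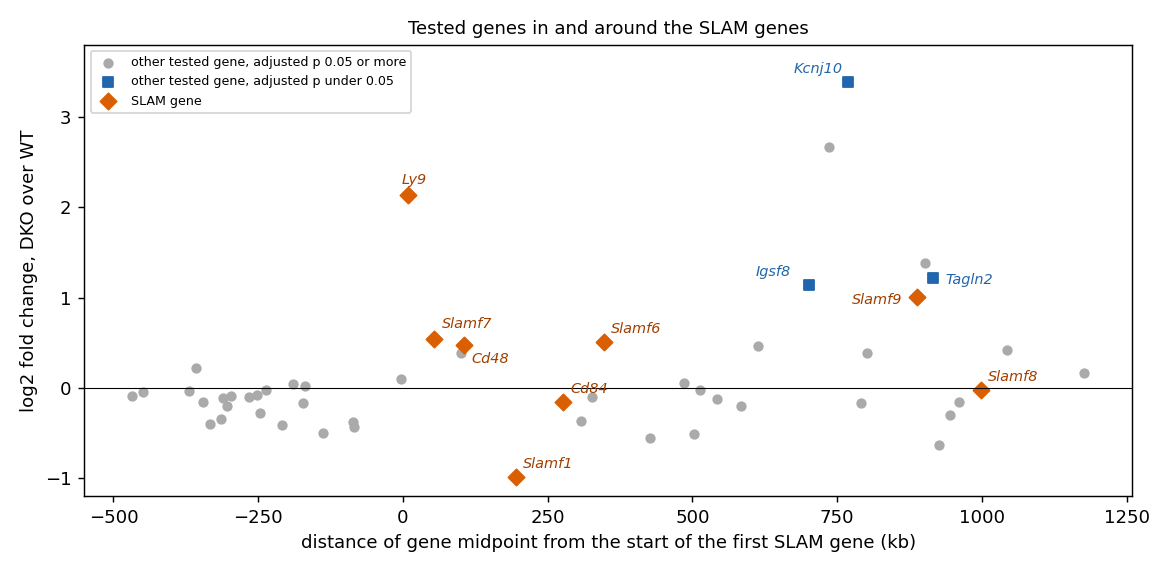
Log2 fold change, DKO over WT, of the SLAM genes (orange) and of the 44 other tested genes, placed by the distance of each gene's middle from the start of Ly9 in kb. The 3 other genes past the threshold (blue) stand on the side of Slamf9, and SLAM genes with values above and below 0 lie next to each other.

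Other leukocytes carry SLAM receptors at high levels, so their markers were read in the same libraries, and in bulk RNA fewer cells of a type and less RNA per cell cannot be told apart. Of 10 B cell markers 4 were tested and 0 called by edgeR (1 at an unadjusted p under 0.05), with a summed level of 429 to 722 (WT) and 583 to 937 CPM (DKO), and Igkc, Pax5 and Fcmr were at 0 in every library. Of 12 T and natural killer cell markers 1 was tested and 0 called (0 at an unadjusted p), with sums of 0.905 to 3.12 and 1.66 to 2.69 CPM, and Cd3g, Trac, Nkg7 and Ncr1 were at 0. Monocyte and neutrophil markers summed to 2.77 to 5.66 and 4.44 to 6.56 CPM (2 of 10 tested, 0 called, 1 at an unadjusted p under 0.05), with S100a8, S100a9, Camp and Chil3 at 0. Dendritic cell markers summed to 17.4 to 22.4 and 16.2 to 24.7 CPM (6 of 8 tested, 0 called, 3 at an unadjusted p under 0.05), with Cd209a at 0. Of 8 markers of border-associated macrophages 3 were tested and 1, Pf4, was called as higher. Pf4 stood at 0 to 0.376 CPM in WT and 2.10 to 6.21 CPM in DKO libraries, so it passed the count filter through its DKO values. The 8 markers had sums of 5.22 to 16.2 and 7.38 to 28.0 CPM, with Cd163 and Lyve1 at 0. Marker counts at an unadjusted p stand without the share over all tested genes, and nothing is read from them. DESeq2 and limma voom both called the B cell marker Cd22 as higher (means of 15.1 and 45.5 CPM, adjusted p = 0.0687 by edgeR) and the dendritic cell marker Itgae as lower, and DESeq2 also called Zbtb46 as higher and Plac8 as lower, and neither called a T or natural killer cell marker. The sort kept CD11b+ cells and removed MHCII+ and CD38+ cells, and the purity of the sorted cells was not measured here. The part of the border-associated macrophage and B cell markers in the levels of Ly9, Slamf6 and Cd48 was not tested.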

How the data were processed

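RNA of sorted microglia was made into libraries by the authors with TruSeq RNA v2, which does not mark strand, and the reads were trimmed (cutadapt 2.6), inspected (FastQC 0.11.8) and mapped to mm10 (STAR 2.5.3a). For the quantifier, a name was not given in the sources used here. Each deposited file lists genes with their estimated counts, which carry no normalization, with a TPM, a transcript length and the effective length (bases). The authors scaled TPM to a common total per library, and it was used here only to check the order and the overlap of levels.

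Estimated counts were rounded to whole numbers, passed through filterByExpr (minimum count 10), given TMM factors and tested with the quasi-likelihood test of edgeR 4.0.16 in R 4.3.3, DKO over WT, with Benjamini-Hochberg adjustment over 13916 genes at 0.05. CPM use the TMM factors, and a standard error is the log2 fold change divided by the square root of the F statistic. The biological coefficient of variation was 28.0%, and each library held 22483284 to 26109349 counts. Of 53697 gene identifiers 53668 matched GENCODE M21 without regard to version.

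The SLAM genes, the pathway and marker lists, the naming rule and the alternatives were chosen with earlier results of these data known. The rule names every SLAM gene, the targeted genes, pathway and neighbouring genes past the threshold (the most abundant where none passed) and the 3 genes likest to each SLAM gene with a mean of at least 10 CPM. Ncf4, Uvrag, Igsf9 and the marker genes were named after their values were seen. Alternatives were RLE, upper-quartile and no factors, DESeq2 1.42.0, limma voom (3.58.1), dropping the count filter, a filter at 1 CPM in 5 libraries, an offset for effective length, a block for the replicate number, a term for libraries 4 and 5 against 1 to 3, each of these sets alone, no WT 1 and WT 5, and each library left out in turn. No protein sequences were used.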

Additional observations from a re-analysis of the deposited data

Results flagged for a closer look

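Of 32 groups of 5 libraries examined, 7 held a library far from the other 4, where chance alone gives about 1 in 20. Slamf1 stood at 13.8 CPM in WT 2, against 7.67 to 9.05 CPM in the other WT libraries. Slamf1 also stood at 8.71 CPM in DKO 1, against 3.17 to 4.37 CPM in the other DKO libraries. Cd48 was at 359 CPM in WT 1, against 247 to 268 CPM, and at 426 CPM in DKO 3, against 365 to 377 CPM. Cd84 was low in WT 3, at 556 CPM against 595 to 603 CPM. Slamf7 was at 0.858 CPM in DKO 3, against 0.427 to 0.51 CPM, on few counts. The neighbouring gene Igsf8 was at 74.2 CPM in WT 4, against 87.5 to 91.7 CPM in the other WT libraries.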

How the results depend on the processing

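The log2 fold changes of the 8 SLAM genes kept their sign in 179 of 183 recomputed values, and the 4 others were those of Slamf8, near 0. Cd84 moved by more than its spread with library size only (-0.22) and with upper-quartile factors (-0.25), which alone shifted the median of all genes by more than 0.1 (-0.11). Of 184 recomputed values for the 8 other genes called here, 159 stayed past the threshold, 25 did not and 0 turned. The count of SLAM genes past the threshold (4) was 2 in libraries 1 to 3, 1 in libraries 4 and 5, 3 to 4 with a library left out and 5, with Slamf1 as lower, with RLE factors, DESeq2, limma voom or the set term. With upper-quartile factors or library size only it stayed at 4, with Slamf1 as lower in place of Cd48. The count of all genes (862) was 1629 with DESeq2, 1431 with the term for libraries 4 and 5, 245 in libraries 1 to 3, 104 in libraries 4 and 5 and 447 without WT 1 and WT 5. With a library left out it ran from 400 (DKO 1) to 1613 (WT 3), and without WT 1, WT 2, WT 4, WT 5, DKO 2 or DKO 5 it was 542, 534, 530, 473, 411 and 536. With TMM 604 rose and 258 fell, with upper-quartile factors 560 and 466, and with library size only 519 and 447.

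Of the pathway lists, the kinases and effectors (3) had 0 calls in libraries 1 to 3 and 0 in libraries 4 and 5. The SLAMF7 partners (1) had 0 in libraries 1 to 3, in libraries 4 and 5 and without WT 1 and WT 5, and 2 with library size only. The phagosome and oxidase list (1) had 3 with DESeq2 and with the set term, 2 with limma voom and with no count filter, 0 in libraries 4 and 5, and 0 to 2 with a library left out. The neighbours (3) had 8 with DESeq2, 7 with the set term, 5 with limma voom and with upper-quartile factors, 1 in libraries 4 and 5, and 3 to 6 with a library left out (6 without WT 3 and 5 without WT 5). The cause of these shifts was not tested, save that the sets and left-out libraries hold fewer samples.

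Deviations of libraries of equal number correlated at -0.22 to 0.19, which cannot show whether the numbers pair the libraries. The paper calls the WT mice littermates of the DKO mice, and the labels give no litters. With the replicate block 547 of all genes, 3 of the SLAM genes and 1 of the kinases and effectors were called, Src and Dok2 being lost, and only libraries numbered 4 correlated best with their own number. At this depth Slamf7 could not be measured well.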

Other observations

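The tested genes whose deviations from the genotype means went most closely with those of a SLAM gene, by Pearson r over the 10 libraries, were listed for members with enough counts. For Ly9 they were Il12rb2 (0.98), a chain of the interleukin-12 receptor, Tgfa (0.98), a growth factor, and Pcdhgb2 (0.97), a protocadherin. For Slamf9 they were Zfp454, Arl11 and Tmem167b, each at 0.95. For Slamf6 they were A430035B10Rik (0.95), Wipf2 (0.92) and mt-Nd2 (0.92), and for Cd48 they were Gm43010 (0.96), Ago3 (0.93) and 9930120I10Rik (0.93). For Cd84 they were Gm28209 (0.94), Gm39465 (0.92) and Dhps (0.90), and for Slamf8 Gm37401 (0.93), Fbxo11 (0.91) and Sdad1 (0.91). Each r was picked as highest among all tested genes over 10 libraries, and no test was run on it.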
